A study of Mus musculus with 42 samples.

Results

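The genes examined were the 10 mouse genes of the A, B, D and E cyclins: Ccna1, Ccna2, Ccnb1, Ccnb2, Ccnb3, Ccnd1, Ccnd2, Ccnd3, Ccne1 and Ccne2. They were taken by name, through their Entrez gene identifiers, from an RNA-seq count table of 27179 genes, and all 10 were present and passed the filter on low counts in every comparison. The table holds 12 libraries of testis cells described as enriched spermatogonia, with 3 libraries in each of 4 groups. The mice were male C57BL/6J at 10 dpp (days post-partum). Control mice carried Ddx4-Cre with 1 intact and 1 floxed Chd8 allele (Ddx4-Cre; Chd8+/F), and mutant mice carried Ddx4-Cre with 1 floxed and 1 deleted allele (Ddx4-Cre; Chd8F/-), so both genotypes held the Cre transgene and a floxed allele. Chd8 encodes a chromatin remodeler, and the Ddx4 promoter drives Cre in germ cells but not in the somatic cells of the testis, so Cre can act on the floxed allele of control germ cells too. From each genotype, magnetic beads enriched Thy1+ cells, described as undifferentiated spermatogonia, and c-Kit+ cells, described as differentiating spermatogonia.

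Cyclins are the regulatory subunits of cyclin-dependent kinases (CDKs), and their levels set which kinase is active at each step of the cell cycle. D-type cyclins act with CDK4 and CDK6 in G1, E-type cyclins with CDK2 at the entry to S phase, A-type cyclins through S phase and G2, and B-type cyclins with CDK1 in mitosis. In the testis the family also serves meiosis: Ccna1 is the A-type cyclin of male germ cells and is needed for the meiotic divisions of spermatocytes, Ccnb3 is a B-type cyclin best known from early meiotic prophase, Ccnd2 is known for its part in the transition to differentiating spermatogonia, and both E-type cyclins are needed in spermatocytes.

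The B-type genes are shown by sequence because Ccnb3 was far lower in mutant c-Kit+ cells while Ccnb1 and Ccnb2 were not. The lines give the 250 bases before each RefSeq transcription start (GRCm38.p6, the assembly of mm10), 5′ to 3′ on the strand of the gene. The regions are chr13:100786487-100786736 for Ccnb1, chr9:70421555-70421804 for Ccnb2 and chrX:7041620-7041869 for Ccnb3, all on the minus strand. Capitals mark the CCAAT box (CCAAT) and the cell cycle homology region (CHR, spelled TTTGAA or TTCGAA), elements known from promoters of G2/M genes.
Ccnb1: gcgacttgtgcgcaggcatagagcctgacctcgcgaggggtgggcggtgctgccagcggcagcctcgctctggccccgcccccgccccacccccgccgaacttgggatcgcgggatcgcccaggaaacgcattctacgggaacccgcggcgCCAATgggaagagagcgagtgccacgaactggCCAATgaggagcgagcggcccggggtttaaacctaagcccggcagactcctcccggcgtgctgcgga
Ccnb2: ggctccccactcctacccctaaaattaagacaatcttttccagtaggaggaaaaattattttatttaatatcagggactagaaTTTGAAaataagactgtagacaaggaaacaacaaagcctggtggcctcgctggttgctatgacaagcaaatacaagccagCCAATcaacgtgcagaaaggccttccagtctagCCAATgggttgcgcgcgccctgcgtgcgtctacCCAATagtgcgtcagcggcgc
Ccnb3: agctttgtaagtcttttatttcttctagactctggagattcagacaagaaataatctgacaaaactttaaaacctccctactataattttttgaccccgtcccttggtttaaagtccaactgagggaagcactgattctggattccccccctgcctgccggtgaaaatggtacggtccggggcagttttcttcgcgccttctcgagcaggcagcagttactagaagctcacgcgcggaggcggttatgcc
Both strands were searched. The Ccnb1 window held 2 CCAAT boxes, which begin 99 and 67 bases before the start. The Ccnb2 window held 3, at 87, 54 and 21 bases, and 1 match to the CHR letters at 167 bases, farther out than all 3 boxes. All windows end at the start, so an element after the start was not searched for. The Ccnb3 window held neither the CCAAT box nor these spellings of the CHR, and other spellings were not searched in any window. None of the 3 windows held the E2F letters TTTGGCGC or TTTCGCGC, and a GC box (GGGCGG) was found 3 times in the Ccnb1 window and in neither of the others. Of 32851 RefSeq promoter windows of this length, 33.8% held a CCAAT box, 17.1% a CHR, 0.654% the E2F letters and 32.7% a GC box. The GC content was 69.6% for Ccnb1, 47.6% for Ccnb2 and 48.0% for Ccnb3. The windows of Ccne1 and of the Ccnd3 start at 47505051 also held neither the CCAAT box nor these CHR spellings. Ccne1 and Ccnd3 were not called lower in mutant c-Kit+ cells. The windows of Ccna1 and of the Ccnd3 start at 47593467 each held 1 CCAAT box and no CHR. Any link of these letters to the genotype changes was not tested. A match says only that the letters are in the window, and the table had promoters for 6 of the 10 genes (not for Ccna2, Ccnd1, Ccnd2 or Ccne2).

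Library totals ran from 32266861 to 45396233 counts. The samples were described as 3 male pups for each analysis, 3 per genotype, with littermate controls, but the labels do not tie a library to a pup or a replicate number to a litter, and p-values measure the spread between these libraries. Counts over the whole Chd8 gene did not check the deletion, since the floxed part is a short stretch of the transcript: Chd8 differed between genotypes by 0.03 ± 0.09 (log2, SE) in Thy1+ and 0.06 ± 0.07 in c-Kit+ cells. As a check of the populations, markers were compared between control Thy1+ and control c-Kit+ cells, with calls as defined below. In Thy1+ cells 7 of 9 markers of undifferentiated spermatogonia were called higher, beside 20.7% of all genes. Of 6 markers of differentiating spermatogonia 5 were called lower there, beside 7.08% of all genes. The germ cell markers Ddx4, Dazl, Mael, Tex101, Tdrd1, Sall4, Rhox13 and Tex15 summed to 2994 to 3793 CPM (counts scaled to a common library size) in control and 2017 to 2306 CPM in mutant c-Kit+ libraries. In Thy1+ libraries they summed to 1748 to 2704 in controls and 1199 to 1969 in mutants. The difference was uneven over these genes: in control and mutant c-Kit+ cells the means were 853 and 320 CPM for Tex15 but 412 and 367 CPM for Ddx4. Markers of somatic testis cells (endothelial, stromal, Sertoli, macrophage, Leydig, peritubular myoid, erythroid and mast) summed to 3311 to 4211 CPM in control c-Kit+ libraries, 6423 to 8020 in mutant c-Kit+, 12435 to 16541 in control Thy1+ and 14260 to 21591 in mutant Thy1+ libraries. In bulk RNA, fewer cells of a type and less RNA per cell cannot be told apart. The part of these markers in the cyclin results below was not tested.

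Levels are given as CPM after TMM normalization of all 12 libraries, which scales each library by a single factor and does not remove differences in cell content. Levels of different genes are compared only per kilobase (kb) of counted exon. A gene was called when edgeR's quasi-likelihood test, run on all genes, gave a Benjamini-Hochberg adjusted p (false discovery rate, FDR) under 0.05 with an absolute log2 fold change over 0.5.

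Per kb, Ccnb1 was the most abundant cyclin of control c-Kit+ cells, with 85.8 ± 3.81 CPM per kb (SD, n = 3 here and below), and its range did not overlap that of Ccna2 below it (51.5 ± 1.43). Ccnd1 (43.2 ± 2.95) stood next, then Ccnb2 (35.5 ± 3.39), Ccnd3 (30.3 ± 5.09) and Ccnd2 (25.4 ± 1.53), among which Ccnb2 and Ccnd3 overlapped, as did Ccnd3 and Ccnd2. Over bases not shared with another gene Ccnd3 had 36.0 ± 6.05 CPM per kb (31.2 to 42.8). There it overlapped Ccnd1 and Ccnb2 and lay above Ccnd2 (24.3 to 27.3) without overlap. The E-type genes Ccne1 (14.0 ± 2.55) and Ccne2 (13.6 ± 3.12) overlapped each other, but over its 1483 bases not shared with another gene Ccne2 had 29.6 ± 6.76 CPM per kb, above Ccne1 without overlap. Ccnb3 (7.00 ± 2.24) and Ccna1 (2.02 ± 0.408) were lowest and did not overlap. In mutant c-Kit+ cells the top pair kept this order, with Ccnb1 at 86.7 ± 2.76 and Ccna2 at 50.1 ± 2.09 CPM per kb, and Ccnb3 (1.76 ± 0.334) had moved to the last place, overlapping Ccna1 (1.83 ± 0.265). In control Thy1+ cells Ccnd2 (59.3 ± 4.19), Ccnd3 (59.2 ± 10.0) and Ccnb1 (58.7 ± 13.6) led and overlapped, and Ccna2, Ccnd1 and Ccnb2 followed at 30.8 to 35.8. Over its unshared bases Ccnd3 had 70.4 ± 11.9 CPM per kb in these cells, still overlapping Ccnd2 and Ccnb1. Mutant Thy1+ cells had Ccnd3 first at 75.3 ± 16.2 CPM per kb, overlapping Ccnb1 (59.1 ± 12.2), and Ccna1 (0.829 ± 0.196) and Ccnb3 (1.24 ± 0.445) last. Over its unshared bases Ccnd3 was at 76.4 to 112 CPM per kb, above Ccnb1 (51.7 to 73.2) without overlap.

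**Figure D1:**
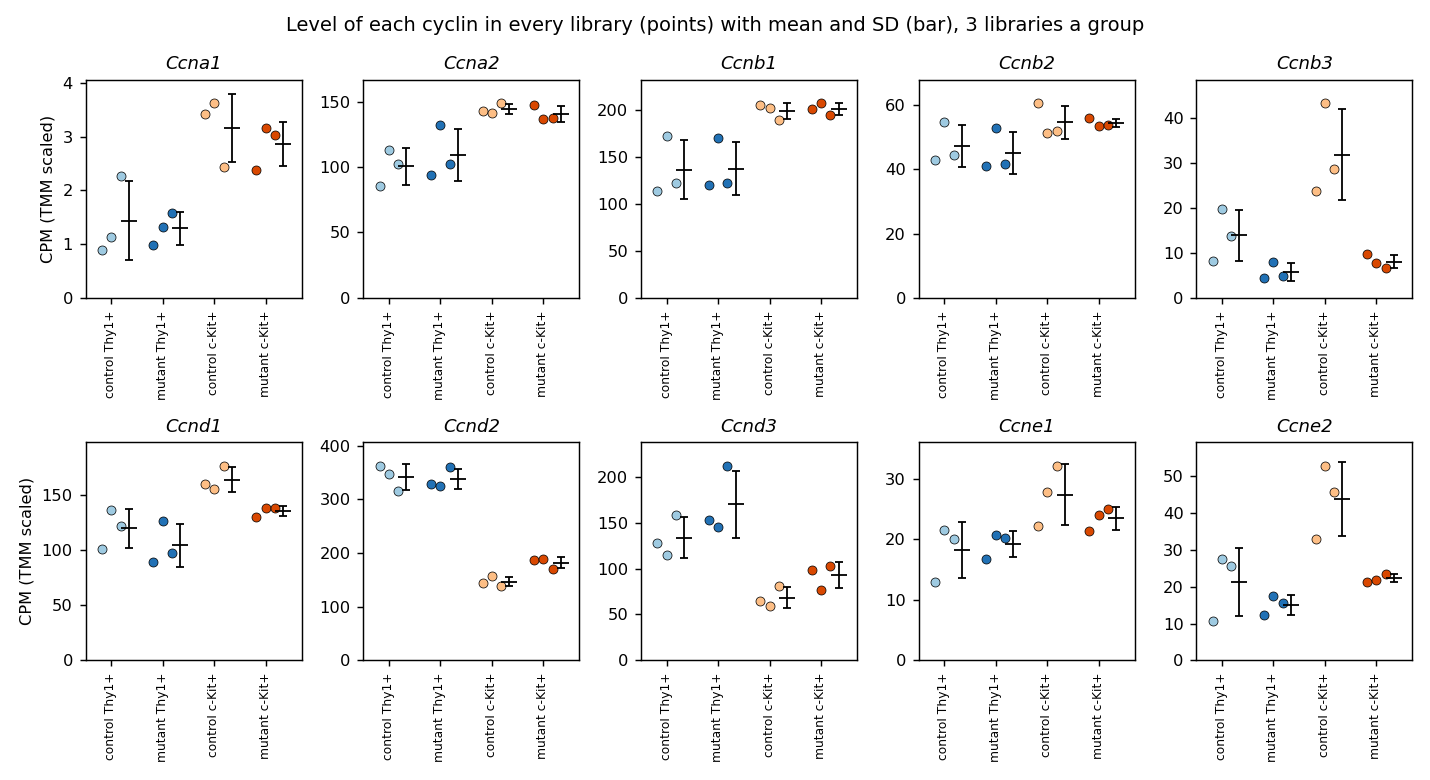
CPM after TMM normalization (y axis, linear from 0, a scale for each gene) of the 10 cyclins in the 12 libraries, grouped on the x axis by genotype and population, with the mean and SD of 3 libraries beside the points. Ccnb3 and Ccne2 sit lower in all 3 mutant c-Kit+ libraries than in any control c-Kit+ library, and Ccnd2 and Ccnd3 sit higher in Thy1+ than in c-Kit+ libraries of the same genotype.

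The first question was which cyclins differed between mutant and control c-Kit+ cells. Ccnb3 and Ccne2 were called lower, and none was called higher. Over all 17134 genes tested, 22.2% were called in this comparison, 7.41% lower and 14.8% higher. The median log2 fold change of the 10 cyclins was -0.15, and that of all genes 0.01. The libraries of the genotypes did not overlap for 4 of the 10 cyclins, beside 52.2% of all genes.

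Ccnb3 (chrX:6979652-7041619, minus strand, 14 exons, mm10) had the largest change of the family. Its level was 23.7, 43.3 and 28.5 CPM in the control c-Kit+ libraries and 9.62, 7.79 and 6.60 CPM in the mutant ones. All 3 mutant libraries lay below every control library. The fitted level was 4.15-fold lower, a log2 fold change of -2.05 ± 0.22 (SE), with an FDR of 0.000231 in edgeR's quasi-likelihood test.

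Ccne2, an E-type cyclin of S-phase entry (chr4:11191354-11204779, plus strand, 13 exons), was at 33.1, 52.9 and 45.7 CPM in control and 21.3, 22.0 and 23.5 CPM in mutant c-Kit+ libraries. Control and mutant values did not overlap, and the mutant libraries lay close together. The level was 2.05-fold lower in mutants (log2 -1.04 ± 0.15, FDR 0.000672, edgeR). The exons of Ccne2 share 1734 of 3217 bases with Ints8, a gene on the other strand, and reads were counted without strand. Ints8 itself, an Integrator subunit, had a log2 fold change of -0.47 ± 0.09 (FDR 0.00199, edgeR), under the fold limit. Ccne1, its paralog (chr7:38097984-38107490, minus strand), has no such overlap and stood at 22.2, 27.8 and 32.2 CPM in control and 21.4, 24.0 and 25.0 CPM in mutant libraries. These groups overlapped, and Ccne1 did not pass the test (log2 -0.28 ± 0.14, FDR 0.127, edgeR).

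The D-type cyclins of c-Kit+ cells differed in direction from one another. Ccnd1 (chr7:144929931-144939925, minus strand) was at 160.2, 155 and 177 CPM in control and 131, 138 and 139 CPM in mutant libraries, without overlap. Its log2 fold change of -0.33 ± 0.07 had an FDR of 0.00371 (edgeR) but was under the fold limit. Ccnd2 (chr6:127125708-127151048, minus strand) was at 145, 157 and 139 CPM in control and 187, 189 and 171 CPM in mutant libraries, again without overlap and in the other direction. The values were 0.25 ± 0.07 on the log2 scale with an FDR of 0.0144 (edgeR), also under the fold limit. Ccnd3 (chr17:47505051-47599689, plus strand) ran at 64.9, 59.4 and 81.5 CPM in control and 99.1, 76.9 and 103 CPM in mutant libraries, where the lowest mutant library lay under the highest control library. Ccnd3 had a log2 fold change of 0.38 ± 0.13 and an FDR of 0.0448 (edgeR). It was called at 0.53 without control c-Kit+ replicate 3 and at 0.50 without mutant c-Kit+ replicate 2. Without the fold limit 5 cyclins passed (Ccnb3, Ccne2, Ccnd1, Ccnd2 and Ccnd3), beside 39.2% of all genes. With the replicate number as a block the same 2 cyclins were called, beside 23.3% of all genes.

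The higher Ccnd2 and Ccnd3 values stood beside higher somatic markers. In mutant c-Kit+ cells 8 of 8 Sertoli, 7 of 7 endothelial, 7 of 8 stromal, 4 of 6 Leydig, 3 of 6 peritubular myoid, 4 of 5 tested mast cell and 1 of 8 macrophage markers were called higher. With the replicate block 6 of 6 Leydig, 5 of 5 tested mast cell and 6 of 8 macrophage markers were called higher. The sums given above did not overlap between genotypes. Of the erythroid markers 1 was tested, and their sum was at most 3.01 CPM in c-Kit+ libraries. The markers Hba-a2, Hbb-bs and Ms4a2 each had no count in at least 1 library. The cells that contributed Ccnd2 and Ccnd3 RNA cannot be told apart in these libraries, and the part of the somatic markers was not tested. The germ cell markers went the other way: 8 of 8 had a log2 fold change below 0 and 3 were called lower (Tex101, Rhox13 and Tex15), while Ddx4 differed by -0.22 ± 0.09 (FDR 0.0663, edgeR) and Dazl by -0.45 ± 0.08 (FDR 0.00173, edgeR). The 3 called markers had log2 fold changes of -1.96 (Tex101), -1.64 (Rhox13) and -1.47 (Tex15), all below the -1.04 of Ccne2 and above the -2.05 of Ccnb3, and the other 5 lay between -0.45 and -0.19. Of 6 markers of differentiating spermatogonia Stra8 and Prdm9 were called lower, and of 9 markers of undifferentiated spermatogonia Etv5, Neurog3 and Sdc4 were called higher and Lin28a lower. The part of this shift in the Ccnb3 and Ccne2 values was not tested.

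The cyclins of S phase, G2 and mitosis did not pass the test in c-Kit+ cells. Ccnb1 (chr13:100778739-100786486, minus strand), the main partner of CDK1, was at 205, 202 and 189 CPM in control and 201, 207 and 194 CPM in mutant libraries, with wide overlap and a log2 fold change of -0.04 ± 0.06 (FDR 0.604, edgeR). Ccnb2 (chr9:70407689-70421554, minus strand), the other mitotic B-type cyclin, was at 60.7, 51.3 and 52.1 CPM in control and 56.0, 53.5 and 53.9 CPM in mutant libraries (log2 -0.06 ± 0.08, FDR 0.568, edgeR). Ccna2 (chr3:36564865-36571996, minus strand), the A-type cyclin of dividing cells, was at 144, 142 and 149 CPM in control and 148, 137 and 138 CPM in mutant libraries (log2 -0.10 ± 0.06, FDR 0.227, edgeR). The SE of these 3 genes was at most 0.08 on the log2 scale, beside the fold limit of 0.5. Ccna1 (chr3:55045469-55055055, minus strand) was the least counted cyclin over the 12 libraries, with 36 to 130 reads. Its level was 3.44, 3.63 and 2.44 CPM in control and 2.39, 3.16 and 3.04 CPM in mutant c-Kit+ libraries, which overlapped. At this depth the estimate of -0.20 ± 0.23 (FDR 0.516, edgeR) was wide.

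**Figure D2:**
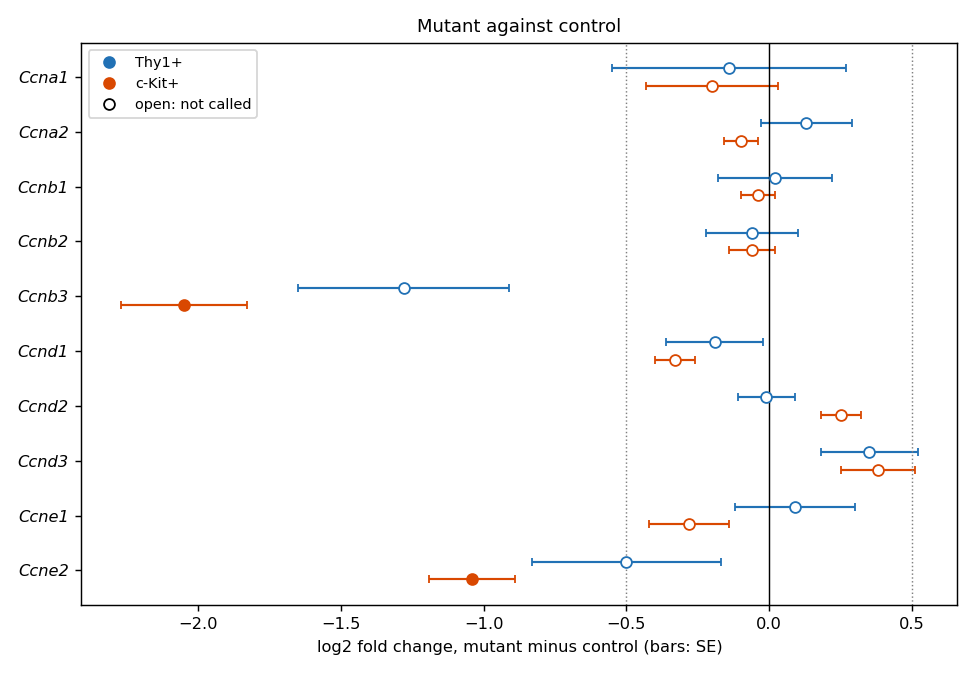
log2 fold change of each cyclin between mutant and control (x axis; bars show the SE of edgeR's fit), in Thy1+ (blue) and c-Kit+ (orange) cells, with dotted lines at the fold limit of 0.5. The fit shown has no replicate block. Filled points, Ccnb3 (-2.05) and Ccne2 (-1.04) in c-Kit+ cells, were called, and all Thy1+ points are open. With the block Ccnb3 was also called in Thy1+ cells (-1.25, not drawn).

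In Thy1+ cells no cyclin was called between genotypes, and neither was any of the 17416 genes tested (0% called by edgeR's quasi-likelihood test, lowest FDR 0.141). Of these genes 2151 had an unadjusted p under 0.05, while the edgeR exact test called 294 and DESeq2 384. Libraries of both genotypes did not overlap for 1 of the 10 cyclins, beside 17.2% of all genes. That 1 was Ccnb3, at 8.08, 19.6 and 13.8 CPM in control and 4.29, 7.98 and 4.70 CPM in mutant Thy1+ libraries. Its log2 fold change was -1.28 ± 0.37 (unadjusted p 0.00816, FDR 0.297, edgeR). Same-numbered libraries were taken as paired from a check on these same counts, not from the labels (the basis stands with the methods). With the replicate number as a block Ccnb3 was called, at -1.25 ± 0.15 with an FDR of 1.64e-05 (edgeR), beside 8.12% of all genes. Mutant replicate 2 (7.98 CPM) and control replicate 1 (8.08 CPM) nearly met, and within each replicate number the mutant library was the lower one. All 8 germ cell markers and all 9 markers of undifferentiated spermatogonia had a log2 fold change below 0 there, with medians of -0.62 and -0.69, and 6 of the 9 did not overlap between genotypes. With the block 4 of 8 (Tex101, Sall4, Rhox13 and Tex15) and 6 of 9 (Zbtb16, Gfra1, Ret, Id4, Lin28a and Nanos3) were called lower, and 8 of 8 Sertoli, 1 of 8 stromal, 2 of 8 macrophage, 1 of 5 tested mast cell and 1 of 4 tested erythroid markers were called higher. Their part in the Thy1+ cyclin values was not tested.

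The other Thy1+ values were smaller. Ccne2 was at 10.8, 27.6 and 25.7 CPM in control and 12.2, 17.6 and 15.5 CPM in mutant libraries, which overlapped through control replicate 1 (log2 -0.50 ± 0.33, FDR 0.540, edgeR). Ccnd3 was at 128, 114 and 159 CPM in control and 153, 145 and 212 CPM in mutant libraries (0.35 ± 0.17, FDR 0.431, edgeR). Ccnd1 was at 101, 136 and 122 CPM in control and 89.5, 126 and 97.4 CPM in mutant libraries (-0.19 ± 0.17, FDR 0.623, edgeR). The groups of both D-type genes overlapped. Under the block Ccnd3, Ccnd1 and Ccne2 reached FDRs of 0.000179, 0.0175 and 0.0392 (edgeR) but stayed under the fold limit, beside 29.2% of all genes with an FDR under 0.05. Ccnd2 was at 363, 348 and 316 CPM in control and 329, 325 and 361 CPM in mutant libraries and was the most tightly measured cyclin there (-0.01 ± 0.10, FDR 0.964, edgeR).

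The remaining 5 cyclins overlapped between genotypes in Thy1+ cells. Ccna2 was at 85.9, 113 and 102 CPM in control and 94.0, 132 and 103 CPM in mutant libraries (log2 0.13 ± 0.16). Ccnb1 was at 114, 172 and 122 CPM in control and 119.7, 169.6 and 122 CPM in mutant libraries (0.02 ± 0.20). In both genes replicate 2 was the highest library of each genotype. Ccnb2 was at 42.8, 54.9 and 44.5 CPM in control and 41.0, 52.8 and 41.6 CPM in mutant libraries (-0.06 ± 0.16), with replicate 2 again highest. Ccne1 was at 12.9, 21.6 and 20.1 CPM in control and 16.7, 20.7 and 20.2 CPM in mutant libraries (0.09 ± 0.21). Ccna1 was at 0.895, 1.14 and 2.28 CPM in control and 0.978, 1.33 and 1.59 CPM in mutant libraries (-0.14 ± 0.41), the widest error of the family.

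Whether the genotype effect differed between the populations was tested directly, as the effect in c-Kit+ cells minus that in Thy1+ cells in a fit of all 12 libraries. No cyclin and none of 18002 genes passed (0% with an FDR under 0.05, edgeR's quasi-likelihood test), while 10.0% of genes had an unadjusted p under 0.05. DESeq2 called 59 genes and the replicate block 446, and no cyclin was among them. The libraries were not taken as paired for this difference. The difference was -0.71 ± 0.46 for Ccnb3 (log2, FDR 0.643, edgeR) and -0.48 ± 0.40 for Ccne2 (FDR 0.735, edgeR). The smallest unadjusted p of the family, 0.0125, belonged to Ccnd2, whose difference of 0.33 ± 0.11 had an FDR of 0.407 (edgeR). The calls of Ccnb3 and Ccne2 in c-Kit+ cells are thus not shown to differ from the Thy1+ values.

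The comparison of the populations asked how the cyclins change from Thy1+ to c-Kit+ cells. It uses the same control libraries as the genotype comparisons. In control mice, Thy1+ minus c-Kit+, 2 of 10 cyclins were called higher and 5 lower, beside 20.7% and 7.08% of the 17350 genes tested (27.8% in all). Without the fold limit 8 cyclins passed, beside 37.6% of genes, and 9 of 10 did not overlap, beside 54.3% of genes. The median log2 fold change of the cyclins was -0.51 and that of all genes 0.03. Somatic marker sums were at least 12435 CPM in control Thy1+ libraries and at most 4211 CPM in control c-Kit+ libraries. All 8 stromal, all 8 macrophage, 5 of 6 peritubular myoid and 3 of 7 endothelial markers were called higher in Thy1+ cells. None of 8 Sertoli and 2 tested erythroid markers was called, and 5 of 6 Leydig and 4 of 5 tested mast cell markers were called lower. Of 8 germ cell markers 7 had a log2 fold change below 0, with a list median of -0.53. Of these Dazl, Tex101, Rhox13 and Tex15 were called lower in Thy1+ cells. The part of the somatic and germ cell markers in the cyclin values was not tested.

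Both cyclins that were higher in Thy1+ cells were D-type. Ccnd2, at 316 to 363 CPM in control Thy1+ and 139 to 157 CPM in control c-Kit+ libraries, was 2.37-fold higher (log2 1.25 ± 0.09, FDR 3.27e-05, edgeR). Ccnd3, at 114 to 159 against 59.4 to 81.5 CPM, was 1.99-fold higher (0.99 ± 0.15, FDR 0.00147, edgeR). Ccnd1 went the other way, at 101 to 136 against 155 to 177 CPM, with an FDR of 0.0175 (edgeR) and a log2 fold change of -0.43 ± 0.11 that was under the fold limit.

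The cyclins that were lower in control Thy1+ cells were spread over the other types. Ccnb3 was 2.27-fold lower (log2 -1.19 ± 0.32, FDR 0.0208, edgeR), Ccna1 2.18-fold lower (-1.13 ± 0.37, FDR 0.0434) and Ccne2 2.03-fold lower (-1.02 ± 0.32, FDR 0.0357). Ccnb1 (-0.52 ± 0.15, FDR 0.0228, edgeR) and Ccna2 (-0.50 ± 0.10, FDR 0.00705) passed the fold limit narrowly. Ccne1 did not overlap but missed the threshold (-0.57 ± 0.21, FDR 0.0599, edgeR). These libraries were taken as paired by replicate number too, and with the block Ccne1 was called at -0.58 ± 0.12 (FDR 0.00377, edgeR), beside 30.1% of all genes. With the block all cyclins but Ccnb2 had an FDR under 0.05, beside 46.4% of genes. Ccnb2 was the only cyclin whose libraries overlapped (-0.18 ± 0.13, FDR 0.279, edgeR). Single libraries decided several of these calls: 3 cyclins (Ccna2, Ccnd2 and Ccnd3) were called without control c-Kit+ replicate 2, 4 without control Thy1+ replicate 1 (Ccnb3, Ccnd2, Ccnd3 and Ccne2), 4 without control Thy1+ replicate 3 (Ccna1, Ccna2, Ccnd2 and Ccnd3), and Ccnd2 and Ccnd3 were called in each case.

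In mutant mice the same comparison called 2 cyclins higher and 3 lower, beside 15.3% and 5.03% of 17346 genes (20.3% in all). The same 5 passed without the fold limit, beside 27.3% of genes, and 9 of 10 did not overlap, beside 50.1% of genes. Somatic marker sums were 14260 to 21591 CPM in mutant Thy1+ and 6423 to 8020 CPM in mutant c-Kit+ libraries. All 8 germ cell markers had a log2 fold change below 0 here, with a median of -0.49. The part of these markers in the cyclin values was not tested. Ccnd2 (log2 0.93 ± 0.08, FDR 9.76e-05, edgeR) and Ccnd3 (0.91 ± 0.17, FDR 0.00457) were again higher in Thy1+ cells. Ccna1 (-1.10 ± 0.28, FDR 0.0200, edgeR), Ccnb1 (-0.51 ± 0.14, FDR 0.0269) and Ccne2 (-0.52 ± 0.15, FDR 0.0347) were lower. Ccnb3 was the cyclin whose mutant populations overlapped, at 4.29 to 7.98 CPM in Thy1+ and 6.60 to 9.62 CPM in c-Kit+ libraries (-0.45 ± 0.27, FDR 0.229, edgeR), and the test of the difference between the genotypes is the one given above for Ccnb3. Ccna2 (-0.32 ± 0.13, FDR 0.0961, edgeR), Ccnd1 (-0.34 ± 0.13, FDR 0.0827), Ccne1 (-0.25 ± 0.13, FDR 0.172) and Ccnb2 (-0.23 ± 0.12, FDR 0.174) did not pass. Only Ccnd2 and Ccnd3 were called without mutant c-Kit+ replicate 2 and without mutant c-Kit+ replicate 3, and Ccna1 joined them without mutant c-Kit+ replicate 1, mutant Thy1+ replicate 1 or mutant Thy1+ replicate 3.

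**Figure D3:**
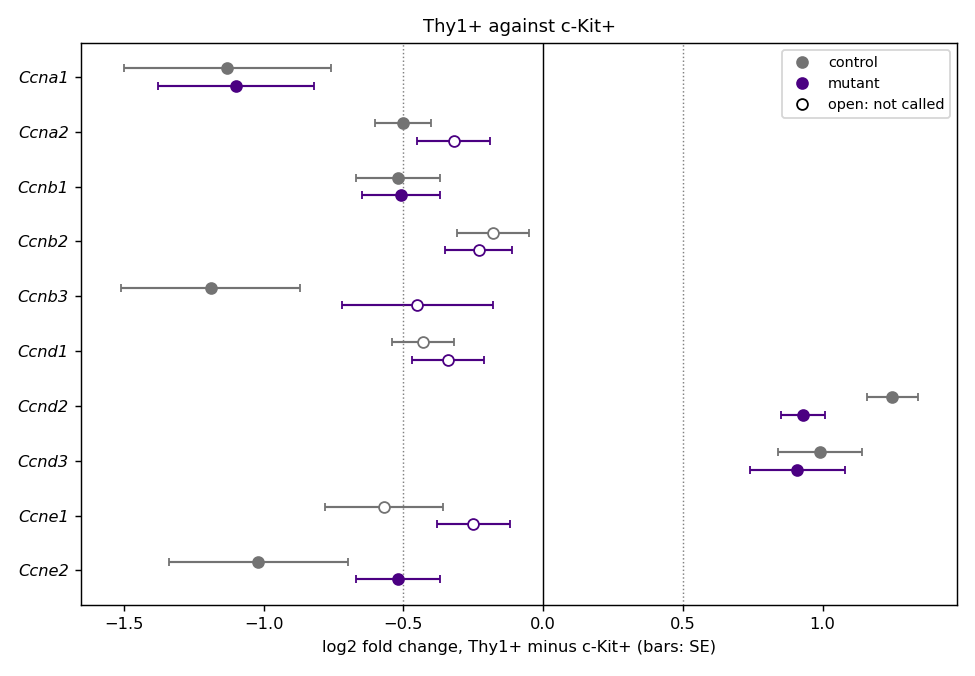
log2 fold change of each cyclin between Thy1+ and c-Kit+ cells (x axis, Thy1+ minus c-Kit+; bars show the SE of edgeR's fit) in control (grey) and mutant (purple) mice, with dotted lines at the fold limit of 0.5. Ccnd2 and Ccnd3 lie to the right of 0.5 in both genotypes and the other 8 cyclins lie to the left of 0.

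The make-up of each cyclin type was compared as shares of its summed level per kb, which do not depend on library scaling. In c-Kit+ cells Ccnb3 made up 5.46% ± 1.72 of the B-type sum in controls (3.91% to 7.31%) and 1.42% ± 0.246 in mutants (1.21% to 1.69%). In Thy1+ cells the share was 3.20% ± 0.823 in controls (2.26% to 3.77%) and 1.36% ± 0.218 in mutants (1.19% to 1.60%). Neither pair of ranges overlapped. Per 100 counts of Ccnb1 there were 11.6, 21.4 and 15.1 counts of Ccnb3 in control and 4.79, 3.76 and 3.40 in mutant c-Kit+ libraries. The same ratio was 7.11, 11.4 and 11.3 in control and 3.58, 4.71 and 3.87 in mutant Thy1+ libraries, so each mutant library had the lower ratio in both populations.

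Within the D type, Ccnd1 held 43.7% ± 0.304 in control c-Kit+ cells (43.4% to 44.0%) and 33.0% ± 2.13 in mutant ones (31.1% to 35.3%), with no overlap. Ccnd3 went from 30.5% ± 3.00 to 37.8% ± 4.25 and Ccnd2 from 25.8% ± 3.08 to 29.2% ± 2.64, and both overlapped. With exon bases shared with another gene left out of the lengths, Ccnd3 went from 34.2% ± 3.19 to 41.9% ± 4.42, still overlapping. Ccnd1 then went from 41.2% ± 0.320 to 30.8% ± 2.19, again without overlap. Per 100 counts of Ccnd1 there were 40.5, 38.2 and 46.1 counts of Ccnd3 in control and 75.9, 55.6 and 74.5 in mutant c-Kit+ libraries, without overlap. The summed D-type level was 99.0 ± 6.75 CPM per kb in control and 109 ± 4.63 in mutant c-Kit+ cells, against 150.0 ± 6.01 and 161 ± 18.1 in Thy1+ cells. Control Thy1+ cells had a Ccnd1 share of 21.0% ± 3.17, with Ccnd2 at 39.6% ± 4.27 and Ccnd3 at 39.3% ± 5.16.

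Within the E type, Ccne2 held 49.2% ± 3.91 in control c-Kit+ cells (46.3% to 53.6%) and 36.6% ± 1.00 in mutant ones (35.8% to 37.7%), without overlap. These shares divide Ccne2 by all 3217 exon bases, though reads touching the 1734 bases shared with Ints8 are given to neither gene. Over the 1483 unshared bases the share was 67.7% ± 3.37 in control and 55.6% ± 1.06 in mutant c-Kit+ cells, again without overlap, and Ccne2 stood above Ccne1 in both. There were 149, 190.2 and 142 counts of Ccne2 per 100 of Ccne1 in control and 99.6, 91.6 and 93.9 in mutant c-Kit+ libraries. In Thy1+ cells the share was 40.4% ± 5.81 in controls (33.7% to 43.8%) and 32.2% ± 1.70 in mutants (30.7% to 34.1%), which overlapped through control replicate 1. Over the unshared bases these became 59.4% ± 5.98 and 50.7% ± 1.93. The A-type sum was 95.6% to 98.2% Ccna2 in every library. With 3 libraries against 3 a two-sided exact permutation test of a share could not go below p = 0.1, so no p is given for these shares.

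**Figure D4:**
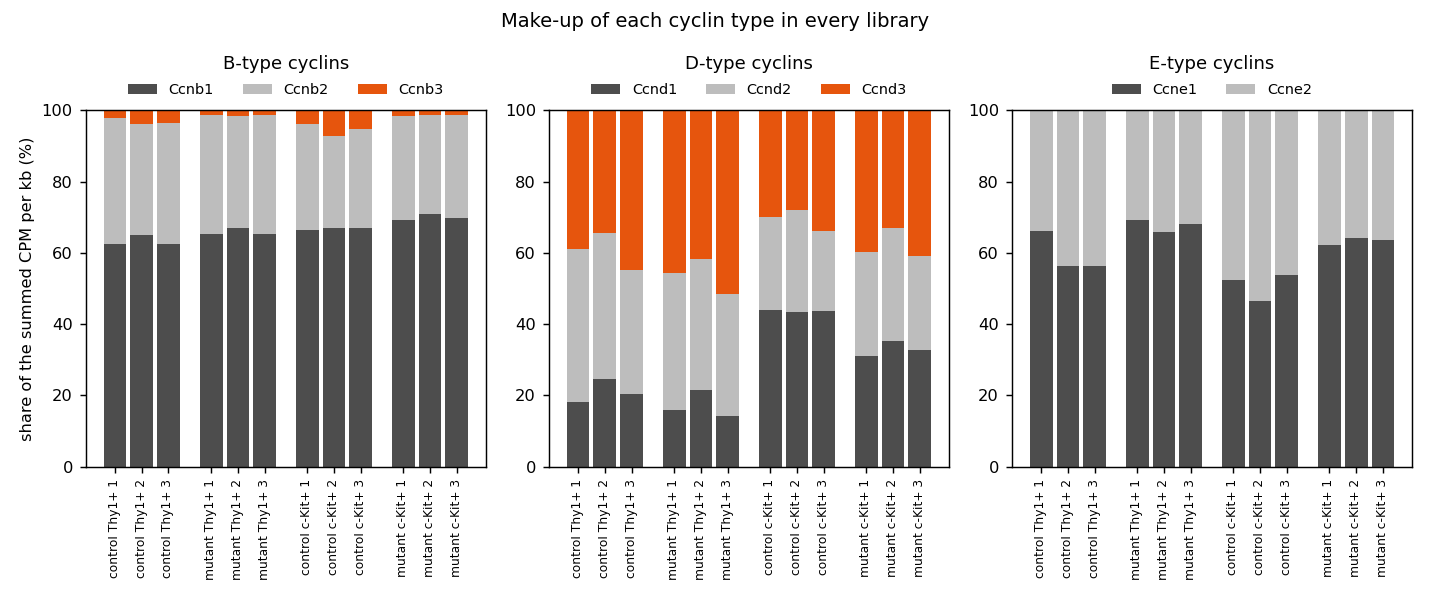
Share of each gene in the summed CPM per kb of its cyclin type (y axis, percent) in each of the 12 libraries, for B-type, D-type and E-type cyclins. Ccnb3 narrows from 5.46% to 1.42% of the B type and Ccne2 from 49.2% to 36.6% of the E type in mutant c-Kit+ libraries, and Ccnd1 from 43.7% to 33.0% of the D type.

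The genes most like each cyclin were found by Pearson's r of log2 CPM over the 12 libraries, among 13477 expressed genes. The r is a description, since the points fall into 4 groups and share their libraries. For Ccnb3 the closest were 4930447C04Rik (r = 0.991), Rims2 (0.990) and Kdm5a (0.989). For Ccne2 they were Ubr7 (0.985), Cyb5rl (0.982) and Madd (0.982), and for Ccne1 Osbpl2 (0.967), Morc4 (0.960) and Ints13 (0.953). Among the D type, Ccnd1 was closest to Dnaaf2 (0.991), Gclm (0.988) and Mreg (0.987), Ccnd2 to Aff3 (0.993), Fut10 (0.990) and the muscle filament gene Des (0.988), and Ccnd3 to Efemp2 (0.988), Arhgap28 (0.986) and 1810010H24Rik (0.986). Des is one of the peritubular myoid markers. Among the mitotic cyclins, Ccnb1 was closest to Nop9 (0.996), Plaa (0.990) and Hmga1 (0.990), Ccnb2 to Noc2l (0.966), Ehd1 (0.960) and Sox3 (0.960), and Ccna2 to 1700067K01Rik (0.982), Cdk5r1 (0.980) and Suv39h2 (0.980). Ccna1, at low counts, was closest to Otop1 (0.941), Skiv2l (0.933) and Lacc1 (0.931). The 10 cyclins were left out of these lists. Among themselves, Ccnb1 had an r of 0.924 with Ccnb2, 0.950 with Ccna2 and 0.515 with Ccnb3. Ccnb3 was most like Ccne2 (0.891), Ccne1 had 0.869 with Ccne2, and Ccnd2 had 0.864 with Ccnd3 and -0.824 with Ccnd1.

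Around the cyclins, genes of the cell cycle machinery were compared between genotypes in c-Kit+ cells, where 7.41% of all genes were called lower and 14.8% higher. None of the 4 kinases Cdk1, Cdk2, Cdk4 and Cdk6 was called. The largest value among them was 0.20 ± 0.08 for Cdk1, the mitotic kinase, at 37.1 to 40.4 CPM in control and 45.3 to 48.5 CPM in mutant libraries (FDR 0.0639, edgeR). Of 7 CDK inhibitors 1 was called: Cdkn1b, which encodes p27, was 2.06-fold higher (log2 1.04 ± 0.15, FDR 0.000648, edgeR), at 9.61 to 14.0 CPM in control and 23.2 to 28.9 CPM in mutant libraries. Of the pocket proteins, which hold E2F factors in check, Rbl2 was called higher (0.77 ± 0.11, FDR 0.000704, edgeR) at 18.4 to 24.8 against 37.1 to 39.0 CPM, while Rb1 (-0.34 ± 0.07) and Rbl1 (-0.49 ± 0.09) had FDRs of 0.00368 and 0.00168 and were under the fold limit. Cdkn1b and Rbl2 were both called higher in control Thy1+ than control c-Kit+ cells as well, by 1.89 ± 0.19 and 1.43 ± 0.18 (FDR 0.000153 and 0.000451, edgeR), the comparison in which the somatic marker sums were also higher. Their part was not tested.

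None of 9 enzymes that switch CDKs on or off was called, and 4 had an FDR under 0.05, a share near the 39.2% of all genes. The largest value was -0.44 ± 0.10 for Pkmyt1, an inhibitory kinase of CDK1 (FDR 0.00635, edgeR). None of 15 genes of cyclin degradation was called, and the 7 with an FDR under 0.05 were again a share near that of all genes. Their largest value was -0.35 ± 0.07 for Cdc16, a subunit of the anaphase-promoting complex (FDR 0.00299, edgeR). Of 16 other cyclin genes 1 was called: Cntd1, a cyclin-like gene of meiotic crossover formation, was 2.81-fold lower (log2 -1.49 ± 0.21, FDR 0.000628, edgeR), at 7.34 to 13.0 CPM in control and 3.42 to 4.14 CPM in mutant libraries.

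Of 21 genes of a mitotic list 4 were called lower in mutant c-Kit+ cells, all 21 had a log2 fold change below 0, and 16 had an FDR under 0.05, beside 39.2% of all genes, with a list median of -0.29 beside 0.01 for all genes. The largest change was that of Mybl1, a transcription factor known for meiotic prophase more than for mitosis (-1.02 ± 0.23, FDR 0.00553, edgeR). Without it 3 of 20 genes were called lower, with a list median of -0.29. They were Bub1, a spindle checkpoint kinase (-0.76 ± 0.13, FDR 0.00148), Ect2, which acts in cytokinesis (-0.66 ± 0.10, FDR 0.000642) and Top2a, a topoisomerase (-0.60 ± 0.10, FDR 0.00167). Ccnb1, Ccnb2 and Ccna2, with values from -0.10 to -0.04, were nearer 0 than the median of this list. In Thy1+ cells no gene of these lists was called between genotypes, in a fit that called 0% of all genes. With the replicate block, which called 8.12% of all genes, Cntd1 and the CDK inhibitor Cdkn2b were called lower there, none was called higher, and 7 of 21 mitotic genes had an FDR under 0.05, beside 29.2% of all genes. Between the control populations all 21 mitotic genes had a log2 fold change below 0 and 13 were called lower in Thy1+ cells, beside 7.08% of all genes, with a median of -0.55 (0.03 for all genes), beside -0.52 for Ccnb1 and -0.50 for Ccna2.

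**Figure D5:**
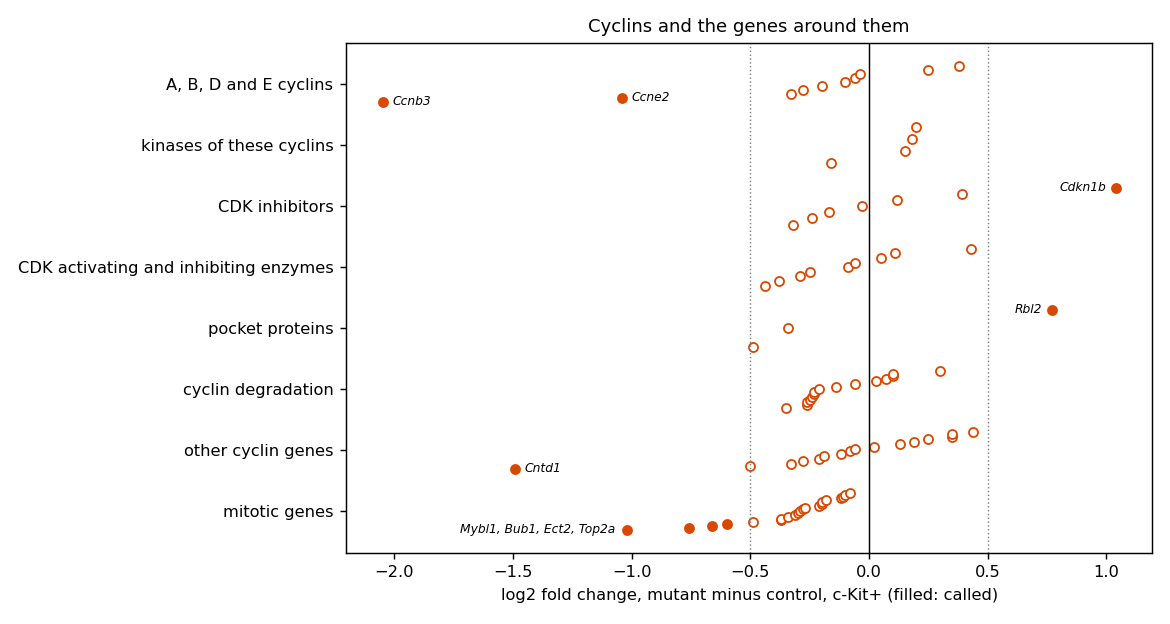
log2 fold change between mutant and control c-Kit+ cells (x axis, dotted lines at the fold limit of 0.5) of the 10 cyclins and 7 lists of related genes (rows), a point for each gene, filled where called. Ccnb3, Ccne2, Cntd1 and 4 genes of the mitotic list are filled on the left, and Cdkn1b and Rbl2 on the right.

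Besides Ccne2, exons of 3 cyclins share bases with a gene on the other strand: 378 of 2811 bases of Ccna2 with Exosc9, 359 of 2261 of Ccnd3 with Bysl, and 33 of 5772 of Ccnd2 with a gene that has no symbol here. By the counter's default a read that touches exons of both genes is given to neither, while the lengths used for levels per kb include the shared bases. In c-Kit+ cells Bysl, a ribosome assembly gene, had a log2 fold change of -0.35 ± 0.08 (FDR 0.00646, edgeR), opposite in sign to Ccnd3, and Exosc9, an RNA exosome subunit, one of -0.09 ± 0.09 (FDR 0.434, edgeR). RefSeq also lists pseudogenes of Ccnb2 and Ccnd3, for which the count table holds no entry.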

How the data were processed

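Poly(A) RNA of bead-enriched Thy1+ and c-Kit+ cells was sequenced as paired-end reads, from stranded libraries of 3 male pups per analysis by the methods. The authors aligned the reads to mm10 by HISAT2 2.1.0 after trimming by Trimmomatic 0.39, and featureCounts (2.0.3 in the file header) assigned them to RefSeq exons without a strand setting or a fragment setting. The authors deposited raw counts for each gene and library, with no pooling. ChIP-seq samples of the series were not analysed here.

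Counts were tested with edgeR 4.0.16 in R 4.3.3: filterByExpr (minimum count 10, minimum total 15), TMM, and the quasi-likelihood F test with Benjamini-Hochberg adjustment, in each pair of groups, at an FDR of 0.05 and an absolute log2 fold change of 0.5. The difference of genotype effects came from a fit of all 12 libraries. SE is the absolute log2 fold change divided by the square root of F. Alternatives were the edgeR exact test, DESeq2 1.42.0, other scalings, no filter, no fold limit, 1 fit of all libraries, a replicate block and leaving out each library. On simulated data with 200 genes changed by 1.5 (log2), the test recovered 195 in the c-Kit+ genotype comparison and 170 in the Thy1+ one. It also called 16 and 15 unchanged genes. The simulated libraries were drawn independently, without pairing or differences in cell content, so these counts do not give the power in the real libraries. Symbols matched 25275 of 27179 genes.

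Same-numbered libraries were taken as paired where all 3 correlations of their deviations from the group means passed 0.1. This held between genotypes in Thy1+ (0.266 to 0.490), between genotypes in c-Kit+ (0.101 to 0.125, at the limit) and between control populations (0.134 to 0.298), but not between mutant populations (1 of 3) or for the difference of effects (10 of 18). Each check used the filter and scaling of its own fit, a choice made after calls had been seen; with the scaling of all 12 libraries not all c-Kit+ pairs passed the limit, and the block changed no cyclin call there. No library pair agreed within counting noise (chi-square per degree of freedom at least 10.8).

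The cyclins, gene lists, tests and marker lists were chosen with earlier results of these data known. The text names every cyclin, the called genes of each list in the c-Kit+ genotype comparison (the largest change where none was called) and the 3 genes most correlated with each cyclin (mean log2 CPM of at least 1). Promoter sequences are from RefSeq (GRCm38.p6).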

Additional observations from a re-analysis of the deposited data

How the results depend on the processing

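Between genotypes in c-Kit+ cells, Ccnb3 and Ccne2 were called under every alternative listed with the methods, and the count of called cyclins was 2 except for 5 with no fold limit and 2 to 3 when single libraries were left out, where Ccnd3 joined. In Thy1+ cells the count was 0, and 1 (Ccnb3) by the edgeR exact test, 1 by DESeq2 and 1 with the replicate block (-1.25 on the log2 scale, FDR 1.64e-05, edgeR); it was 0 whichever library was left out. The block changed the call of Ccnb3 in Thy1+ cells and of Ccne1 between control populations, and no other cyclin call in a comparison taken as paired. Mutant populations and the difference of genotype effects were not taken as paired, and there the block gave counts of 5 and 0, as without it. Leaving out single libraries gave 3 to 8 called cyclins between control populations (7 with all) and 2 to 6 between mutant populations (5 with all), 8 without control Thy1+ replicate 2 and 6 without mutant Thy1+ replicate 2. The difference of genotype effects called 0 cyclins in every setting. Ccne1 between control populations was also called by the edgeR exact test, DESeq2, library size scaling and the fit of all 12 libraries. These calls rest on 2 or 3 libraries a group, and the cause of each change was not tested.

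Of 730 values of single cyclins under alternatives, 640 kept direction and side of the threshold, 19 newly passed, 29 no longer passed and 42 changed sign, 0 of which had passed the test. The sign of Ccnb1 changed in Thy1+ cells by library size (-0.02) and in c-Kit+ cells in the fit of all 12 libraries (0.02). For the difference of effects it changed for Ccnb1 under DESeq2 (-0.07), DESeq2 size factors (-0.07), library size (-0.02) and no filter (-0.03), and for Ccnb2 under DESeq2 (-0.02) and DESeq2 size factors (-0.02). Leaving out single libraries in Thy1+ cells gave log2 fold changes of -0.39 to 0.35 for Ccna1, -0.05 to 0.23 for Ccna2, -0.19 to 0.23 for Ccnb1, -0.21 to 0.07 for Ccnb2, -0.07 to 0.03 for Ccnd2 and -0.11 to 0.24 for Ccne1, and in c-Kit+ cells -0.11 to 0.01 for Ccnb2. For the difference of effects the ranges were -0.50 to 0.25 for Ccna1, -0.29 to 0.19 for Ccnb1, -0.14 to 0.19 for Ccnb2, -0.27 to 0.09 for Ccnd1 and -0.07 to 0.28 for Ccnd3. Other scalings moved the median of all genes by at most 0.087 (log2). With exon bases shared with another gene left out of the length, an alternative chosen after seeing the data, the share of Ccne2 in the E type moved from 49.2% to 67.7% in control and from 36.6% to 55.6% in mutant c-Kit+ cells. The share of Ccnd3 in the D type moved from 30.5% to 34.2% in control and from 37.8% to 41.9% in mutant c-Kit+ cells. Low counts limit Ccna1, and the spread of the Thy1+ libraries limits that comparison.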
